A study of Rattus norvegicus with 6 samples.

Results

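The 50 genes described here encode homeobox transcription factors: 29 Hox genes and 21 genes of the Dlx, Msx, Prrx, Alx, Barx, Pitx, Shox and Meis families. They were chosen by symbol among the 20675 genes of a table in RPKM, a unit that scales reads both to the length of the gene and to the reads counted in the library. The cells were primary cells of the rat temporomandibular joint (TMJ) disc, the fibrous pad between the bones of the jaw joint. In 3 libraries the cells had been given GSK101, which opens the calcium channel TRPV4, for 24 h, and in 3 control libraries, labelled Ctrl, the solvent DMSO for 24 h. The sources used here give no strain, age, sex or dose, and do not say whether the replicates came from separate animals or cultures, so the p-values speak of the spread among these libraries, some of which may be technical. Hox genes without a row were not analysed here.

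A homeobox gene encodes a protein that binds DNA through a homeodomain and thereby sets which other genes a cell uses. Hox genes lie in clusters and are switched on in nested domains along the body axis, so that a cell's Hox genes reflect its level along the trunk. In mouse and chick embryos the neural crest cells that enter the first pharyngeal arch, which forms the jaws, do not express Hox genes, whereas crest of the second arch expresses Hoxa2. Within the first arch of the mouse, Dlx genes subdivide the tissue from upper to lower jaw: Dlx1 and Dlx2 are used throughout, Dlx5 and Dlx6 in the lower part, and Dlx3 and Dlx4 nearest the tip. Prrx, Msx, Alx, Barx and Pitx genes mark further regions of the facial mesenchyme, and MEIS proteins are partners of HOX proteins on DNA that also act without them.

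Promoter sequences are shown for 4 genes whose levels stood far apart: Prrx1 and Prrx2, which had the highest levels of all 50 genes, and the neighbours Hoxd8 and Hoxd9 of the Hoxd cluster, of which Hoxd8 was the Hox gene with the highest level. Each is the 250 bases before the gene's start in RefSeq on the GRCr8 build, 5′ to 3′, a different build from that of the expression table. Capitals mark CG dinucleotides.
Prrx1, chr13:78204074-78204323, minus strand: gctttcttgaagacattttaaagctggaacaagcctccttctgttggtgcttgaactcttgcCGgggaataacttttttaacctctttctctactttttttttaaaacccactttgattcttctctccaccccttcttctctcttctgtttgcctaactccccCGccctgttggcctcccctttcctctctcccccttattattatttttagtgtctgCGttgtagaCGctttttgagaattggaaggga
Prrx2, chr3:34530081-34530330, plus strand: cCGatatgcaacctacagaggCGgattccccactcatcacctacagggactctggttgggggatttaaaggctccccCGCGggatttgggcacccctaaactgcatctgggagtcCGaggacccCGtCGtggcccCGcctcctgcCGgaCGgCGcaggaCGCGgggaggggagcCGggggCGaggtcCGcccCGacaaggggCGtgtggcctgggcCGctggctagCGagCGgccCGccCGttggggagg
Hoxd8, chr3:80014973-80015222, plus strand: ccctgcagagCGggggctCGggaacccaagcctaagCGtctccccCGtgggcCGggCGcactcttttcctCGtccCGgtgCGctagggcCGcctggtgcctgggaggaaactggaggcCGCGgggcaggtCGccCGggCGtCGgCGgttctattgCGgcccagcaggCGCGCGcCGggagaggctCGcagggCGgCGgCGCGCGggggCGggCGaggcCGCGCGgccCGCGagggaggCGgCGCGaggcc
Hoxd9, chr3:80007756-80008005, plus strand: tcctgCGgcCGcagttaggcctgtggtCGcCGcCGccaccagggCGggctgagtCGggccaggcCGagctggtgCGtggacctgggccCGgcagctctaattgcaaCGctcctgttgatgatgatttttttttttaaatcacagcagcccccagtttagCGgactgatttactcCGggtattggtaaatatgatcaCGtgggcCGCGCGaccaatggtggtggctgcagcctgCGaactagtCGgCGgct
The Prrx1 window held 4 CG dinucleotides and the Prrx2 window 23, against a median of 5 over 33469 RefSeq windows of the same length. Hoxd8 had 38, more than 98.3% of all windows, and Hoxd9 had 20. RefSeq windows matched 22 of the 50 genes, with 24 windows in all and a median of 19 CG dinucleotides. The 14 Hox windows ranged from 3 to 39, so that CG-rich promoters were found both at Prrx2, which was read strongly, and at Hox genes with next to no reads. The letters TAATTA, a core that many homeodomains bind, and TGANTCA, the AP-1 element bound by FOS and JUN proteins, were searched on both strands. The 24 windows held neither, and 4.86% and 6.34% of all windows held them.

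The Hox genes were almost silent in the control cells and the craniofacial genes were not. The mean control level was under 0.5 RPKM for 28 of 29 Hox genes, 96.6%, for 5 of the 21 other genes, 23.8%, and for 38.7% of all genes of the table. Summed over the 29 Hox genes, the level was 2.49, 2.58 and 2.78 RPKM in the 3 control libraries. Summed over the 21 other genes it was 614, 595 and 585 RPKM, most of it from Prrx1 and Prrx2. A level in a culture does not tell a few cells with much RNA of a gene from many cells with little.

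The exception among the Hox genes was Hoxd8, a gene from the middle of the Hoxd cluster on chromosome 3 (61627383 to 61628628 on Rnor_6.0). Its level was 2.00, 1.30 and 1.40 RPKM with GSK101, against 1.45, 1.51 and 1.83 RPKM in the controls. These values overlapped, and the log2 fold change was -0.03 with a 95% interval from -0.36 to 0.30 (limma adjusted p = 0.897). They came from 74, 49 and 50 reads with GSK101, against 55, 55 and 67 reads in the controls, and Hoxd8 was the only Hox gene that entered the test. Hoxd8 had 6 exon records, which may overlap, and an annotated length of 831 bases, so its RPKM depends on that length.

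The neighbours of Hoxd8 had fewer reads. Hoxd4 (61634005 to 61651056), a gene of the hindbrain and neck in the mouse embryo, had 22, 15 and 4 reads with GSK101 against 24, 22 and 28 in the controls. Its RPKM was lower in each GSK101 library than in any control library, at 0.183, 0.123 and 0.0345 against 0.195, 0.186 and 0.235. It was the one gene of the 33 below the filter whose groups did not overlap, against 9.73% of all genes below the filter, and it did not pass limma when the filter was dropped (log2 fold change -0.21, adjusted p = 0.216). Hoxd9 had 10, 6 and 11 reads against 2, 8 and 12 in the controls. Hoxd10 and Hoxd3 had at most 8 and 2 reads in any library.

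In the other clusters no gene exceeded 14 reads in a library of 43061102 to 45705238 counted reads. Summed over the 9 Hoxb genes, the libraries held 10, 8 and 11 reads with GSK101, against 11, 13 and 0 in the controls. The 6 Hoxc genes had 22, 26 and 12 reads, against 19, 12 and 22. Hoxc10, a gene of the lumbar level in the mouse, gave the most of these, with 14, 10 and 4 against 8, 4 and 12. The 9 Hoxa genes had 30, 20 and 23 reads, against 33, 25 and 18. Hoxb7 and Hoxb8 gave the most in the Hoxb cluster, with at most 4 in any library. Hoxa2, which sets the identity of the second arch in the mouse, had 4, 0 and 1 reads with GSK101 and 4, 0 and 0 in the controls.

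Over all 29 Hox genes, 5 had more than 3 reads in each of the 6 libraries, Hoxd8, Hoxd4 and Hoxc10 among them. Another 12 never exceeded 3 reads, the limit used here for a count of 0. A pair of mates may count as 2 reads, in which case this limit is too low. Hoxd4, Hoxc10 and Hoxa4, each with 4 reads in the lowest library, might then not exceed it. For 4 Hox genes the controls held no read at all, namely Hoxa11, Hoxb6, Hoxb13 and Hoxc4, with 2 to 8 reads over the 3 GSK101 libraries. For 4 others, Hoxa13, Hoxb2, Hoxb3 and Hoxd3, the GSK101 libraries held none, with 2 or 3 reads over the 3 controls. Differences of this size were not detectable at this depth. None of the 28 low Hox genes passed limma without the filter, and none had an unadjusted p under 0.05. Without the filter 16.6% of all 20675 genes passed, but only 2.06% of the 7874 genes below it did, and 7.86% of these had an unadjusted p under 0.05, so 0 of 28 is not far from the share among low genes.

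**Figure D1:**
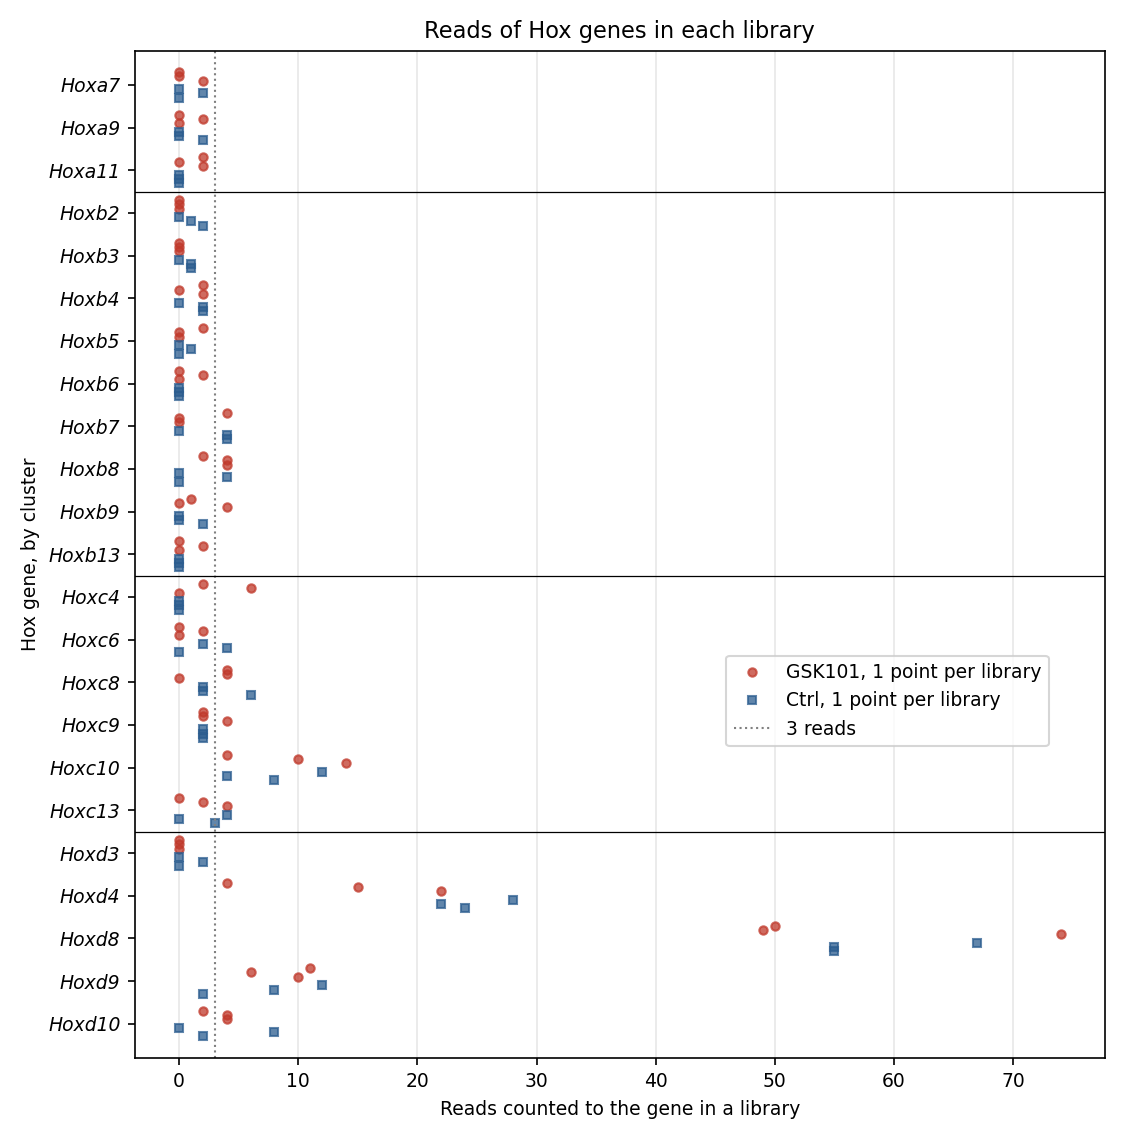
Reads counted to each of the 23 Hox genes whose exons all lie on 1 sequence of the table (horizontal axis) in each library, with GSK101 libraries as circles and Ctrl libraries as squares, 1 point per library. Horizontal lines part the clusters and the dotted line marks 3 reads. Hoxd8 (49 to 74 reads) and Hoxd4 (4 to 28 reads) stand out, and the other genes drawn had at most 14 reads in every library.

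The Hoxa levels carry a limit of the gene models. For 6 of the 9 Hoxa genes, Hoxa2 and Hoxa4 among them, the table lists exons both on chromosome 4 and on the unplaced sequence KL567939.1, which is so for 65 of the 20675 genes. The length used for RPKM is the sum of both, as for Hoxa4 with 858 bases on each and 1716 in all. Where the copies are the same stretch of genome, this lowers the RPKM, and reads that match both may have been dropped. Hoxa7 and Hoxa9, listed on chromosome 4 alone, had no more than 2 reads in any library.

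The highest levels belonged to Prrx1 and Prrx2, paired-related homeobox genes of limb and facial mesenchyme. In the controls Prrx1 had 301, 286 and 283 RPKM, above 98.4% of all genes, and Prrx2 had 162, 153 and 152 RPKM, above 97.1%. Next came Shox2 with 48.5, 52.8 and 48.9 RPKM; in the mouse this gene is needed in the neural crest for a normal jaw joint and its disc. Barx1, a gene of the molar-forming rear part of the first arch in the mouse, had 35.1, 35.0 and 34.3 RPKM. These 4 levels did not overlap, although a level per length rests on the annotated length, which was only 862 bases for Prrx1.

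The Dlx genes followed at lower levels. Dlx5 averaged 14.8 ± 0.21 and its neighbour Dlx6 9.31 ± 0.77 RPKM in the controls (SD, n = 3). Dlx2 averaged 6.68 ± 0.45 and its neighbour Dlx1 4.83 ± 0.27 RPKM. Dlx3 and Dlx4, the pair of the arch tip, had 0.874 ± 0.011 and 0.280 ± 0.072 RPKM. In the control cells Dlx5 was thus above Dlx2 and Dlx1, and Dlx3 and Dlx4 were lowest, with no overlap between Dlx5, Dlx6, Dlx2, Dlx1, Dlx3 and Dlx4 in that order.

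A group of genes lay between 4 and 8 RPKM in the controls. Meis3 averaged 6.96 ± 0.53 RPKM, Pitx1, a gene of the lower jaw and hindlimb, 5.002 ± 0.467, Msx2 4.94 ± 0.25, Meis1 4.56 ± 0.28 and Msx1 4.53 ± 0.14 RPKM (SD, n = 3). Msx1 and Msx2 encode repressors that respond to BMP signals in teeth, palate and skull. Pitx1, Msx2, Dlx1, Meis1 and Msx1 are neighbours in this order, and the control values of each overlapped those of the next, as did those of Meis3 and Dlx2. Meis2 was lower, at 3.35 ± 0.31 RPKM.

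The genes of the frontonasal region, Pitx3 and Barx2 were low. Alx4, a gene of the frontonasal mesenchyme and skull, had 0.836 ± 0.156 RPKM in the controls (SD, n = 3). Alx1, which marks the same region, had 0, 0 and 0 reads with GSK101 against 4, 0 and 2 in the controls. Pitx3, a gene of lens and midbrain neurons, and Barx2 had at most 4 reads in any library. Dlx4 had 45, 23 and 18 reads with GSK101 against 18, 26 and 17 in the controls, also below the filter.

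**Figure D2:**
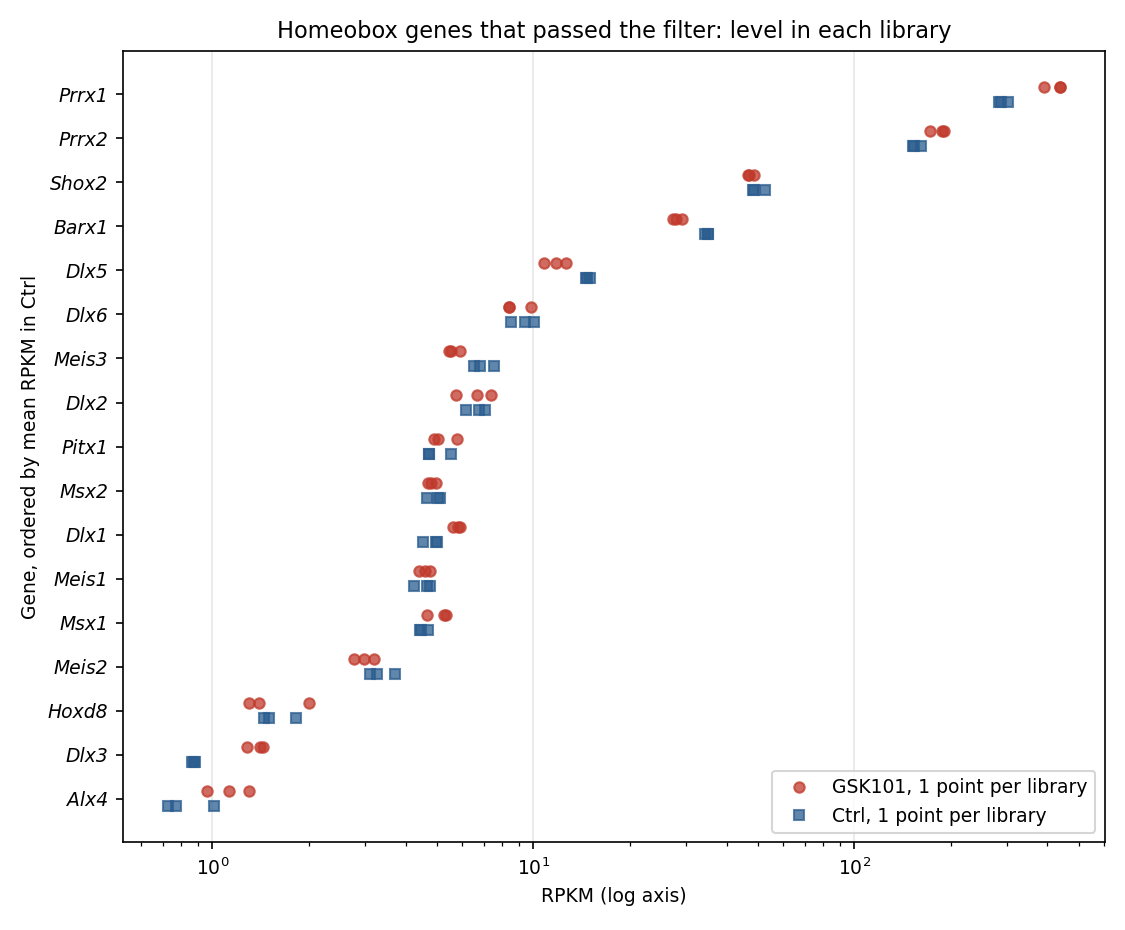
RPKM on a log axis for the 17 genes that passed the filter, in each library, GSK101 as circles above Ctrl as squares, 1 point per library. Prrx1 and Prrx2 lie above 150, Shox2 and Barx1 between 27 and 53, the other Dlx, Meis, Pitx and Msx genes below 15, and Hoxd8, the Hox gene that passed, between 1.30 and 2.00.

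The comparison of GSK101 with the solvent asked what activation of TRPV4 changed. Of the 50 genes 17 reached 0.5 RPKM in at least 3 libraries and entered limma on log2(RPKM + 0.5), with p-values adjusted over all 12801 tested genes. Prrx1, Prrx2, Dlx1 and Dlx3 rose and Dlx5, Barx1 and Meis3 fell at an adjusted p under 0.05, which is 7 of 17. Over all tested genes 31.9% were called, 20.1% higher and 11.9% lower, so 7 of 17 is not far from the background. The median log2 fold change of the 17 was -0.02 against 0.03 over all tested genes, and the median size without sign was 0.15 against 0.16. The groups did not overlap for the same 7 genes, and for 47.3% of all tested genes.

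Prrx1 (chromosome 13, 81147348 to 81214546, minus strand) had 438, 437 and 391 RPKM with GSK101, against 301, 286 and 283 RPKM in the controls. All 3 GSK101 libraries lay above all controls. The mean was 1.45-fold higher, at 422 ± 26.8 against 290.1 ± 9.41 RPKM (SD, n = 3), and the log2 fold change was 0.54 (SE 0.05, limma adjusted p = 0.000487). Prrx1 promotes a mesenchymal state in embryonic connective tissue of the mouse.

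Prrx2 (chromosome 3, 9681871 to 9718051) had 188, 172 and 191 RPKM with GSK101, against 162, 153 and 152 RPKM in the controls, again with no overlap. It was 1.18-fold higher (log2 fold change 0.24, SE 0.05, limma adjusted p = 0.0113). In the mouse Prrx2 acts together with Prrx1 in jaw and limb. The ratio of Prrx1 to Prrx2 was 2.33, 2.54 and 2.05 with GSK101, against 1.86, 1.86 and 1.86 in the controls. This ratio was higher in each GSK101 library (exact two-sided permutation p = 0.1, the smallest that 3 against 3 allows; 0.133 adjusted over the 4 gene pairs examined, which were chosen after the values were seen).

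Among the Dlx genes both directions occurred. Dlx3 (chromosome 10, 82937971 to 82943348) had 1.28, 1.41 and 1.44 RPKM with GSK101, against 0.876, 0.884 and 0.863 RPKM in the controls. It was 1.58-fold higher without overlap, from 150 to 167 reads against 100 to 105 reads (log2 fold change 0.45, SE 0.09, limma adjusted p = 0.0082). Dlx1 (chromosome 3, 58164931 to 58169521) had 5.61, 5.92 and 5.81 RPKM, against 4.52, 5.02 and 4.96 RPKM, 1.20-fold higher (log2 fold change 0.24, SE 0.06, limma adjusted p = 0.0235). The call of Dlx1 rested on small margins. Its adjusted p was 0.0532 without GSK101 replicate 1, 0.0811 without replicate 2, 0.063 without replicate 3 and 0.0624 without Ctrl replicate 1, and 0.0892 with quantile normalization, within 0.0129 to 0.0892 over all alternatives.

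Dlx5 (chromosome 4, 32387741 to 32392007, minus strand) fell. It had 11.8, 12.6 and 10.8 RPKM with GSK101, against 14.7, 15.0 and 14.6 RPKM in the controls, with no overlap (log2 fold change -0.32, SE 0.06, limma adjusted p = 0.00662). In the mouse Dlx5 and Dlx6 together set lower jaw identity, and Dlx5 also acts in bone formation. Dlx6 (32373641 to 32377253), which lies beside Dlx5, had 8.42, 8.40 and 9.85 RPKM with GSK101, against 8.49, 10.04 and 9.39 RPKM in the controls. Its values overlapped, with a log2 fold change of -0.06 and a 95% interval from -0.26 to 0.13. The ratio of Dlx5 to Dlx6 was 1.40, 1.50 and 1.10, against 1.73, 1.49 and 1.55, and the groups overlapped (exact two-sided permutation p = 0.2, where 3 against 3 cannot go below 0.1).

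Dlx2, the neighbour of Dlx1, had 6.65, 7.36 and 5.74 RPKM with GSK101, against 7.07, 6.78 and 6.19 RPKM in the controls. Its groups overlapped (log2 fold change -0.02, 95% interval -0.24 to 0.19). The ratio of Dlx1 to Dlx2 was 0.843, 0.804 and 1.01, against 0.639, 0.739 and 0.802, without overlap (exact two-sided permutation p = 0.1, 0.133 adjusted over the 4 pairs). Dlx4, the neighbour of Dlx3, lay below the filter with 0.620, 0.312 and 0.257 RPKM, against 0.242, 0.363 and 0.236 RPKM.

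Barx1 (chromosome 17, 14824721 to 14828196, minus strand) fell to 27.9, 27.3 and 29.0 RPKM with GSK101, against 35.1, 35.0 and 34.3 RPKM in the controls. The groups stood well apart (log2 fold change -0.31, SE 0.04, limma adjusted p = 0.00168). Shox2, next to it in level, had 46.9, 48.6 and 46.5 RPKM, against 48.5, 52.8 and 48.9 RPKM. These values overlapped, with a log2 fold change of -0.08 and a 95% interval from -0.19 to 0.03.

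Of the Meis genes Meis3 fell. It had 5.48, 5.93 and 5.56 RPKM with GSK101, against 6.52, 6.81 and 7.54 RPKM in the controls (log2 fold change -0.27, SE 0.07, limma adjusted p = 0.0194). The call was lost without GSK101 replicate 1 (adjusted p = 0.0687), GSK101 replicate 3 (0.0556) or Ctrl replicate 3 (0.0501), within 0.00787 to 0.0687 over all alternatives. Meis2 had 2.77, 3.19 and 2.96 RPKM, against 3.70, 3.25 and 3.10 RPKM, and Meis1 had 4.40, 4.61 and 4.76 against 4.68, 4.23 and 4.76 RPKM. Both overlapped, with log2 fold changes of -0.15 (95% interval -0.35 to 0.05) and 0.01 (95% interval -0.15 to 0.17).

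The Msx, Pitx and Alx genes that were tested did not pass. Msx1 had 5.33, 5.26 and 4.68 RPKM with GSK101, against 4.69, 4.47 and 4.42 RPKM in the controls, which overlapped in 1 library (log2 fold change 0.15, 95% interval -0.01 to 0.31). Msx2 had 4.78, 4.98 and 4.70 RPKM, against 5.05, 5.12 and 4.65 RPKM (log2 fold change -0.03, 95% interval -0.18 to 0.12). The ratio of Msx1 to Msx2 was higher in each GSK101 library, at 1.11, 1.05 and 0.996 against 0.929, 0.873 and 0.951 (exact two-sided permutation p = 0.1, 0.133 adjusted over the 4 pairs). Pitx1 had 5.06, 5.77 and 4.92 RPKM, against 5.54, 4.75 and 4.72 RPKM (log2 fold change 0.06, 95% interval -0.14 to 0.26). Alx4 had 0.964, 1.30 and 1.13 RPKM, against 1.01, 0.768 and 0.726 RPKM (log2 fold change 0.29, 95% interval -0.01 to 0.59).

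**Figure D3:**
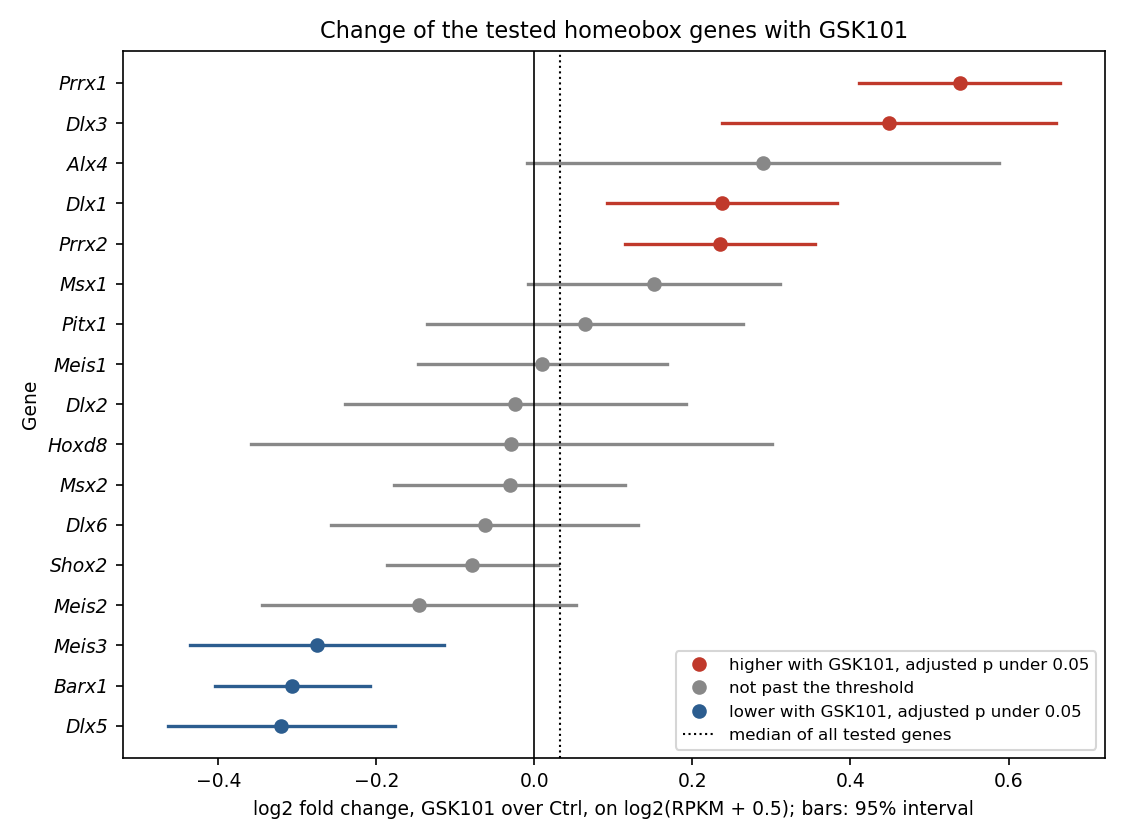
Log2 fold change, GSK101 over Ctrl, of the 17 tested genes on the log2(RPKM + 0.5) scale, with 95% intervals from limma; the dotted line is the median of all 12801 tested genes. Prrx1, Dlx3, Dlx1 and Prrx2 lie to the right with intervals above 0, and Dlx5, Barx1 and Meis3 to the left with intervals below 0.

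**Figure D4:**
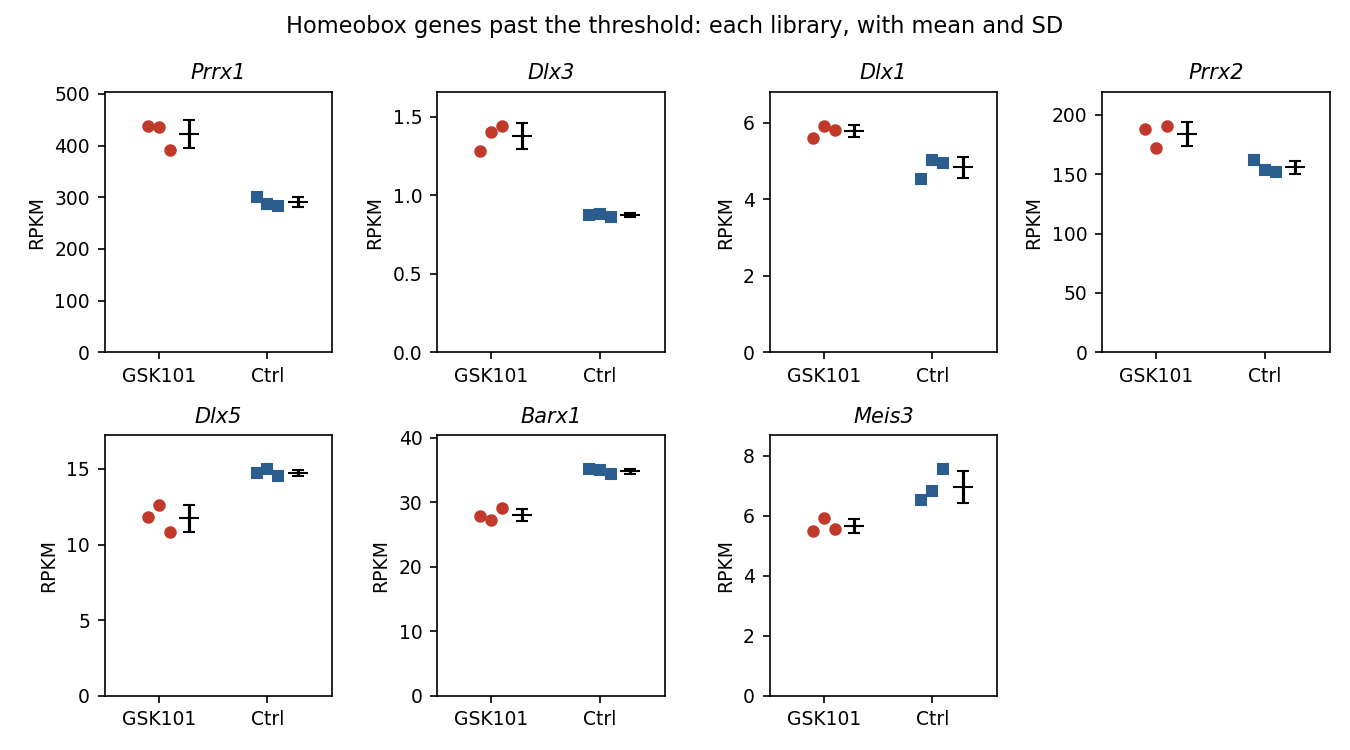
RPKM in each library for the 7 genes past the threshold, GSK101 as circles and Ctrl as squares, with the mean and SD of 3 libraries as black bars; each vertical axis starts at 0. In each panel the GSK101 and Ctrl points do not overlap, and the means differ by at most 1.58-fold.

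Other genes tied to these factors or to position were read from lists outside the 50. Beside the counts of these lists and of the marker lists below, 31.9% of all tested genes were called, 20.1% higher and 11.9% lower. The first list held genes of the Pbx, Pknox and Tgif families. Of 7 tested genes in it 1 fell and none rose, with a median log2 fold change of -0.13. The 1 was Pbx3, at 23.6 ± 0.48 RPKM with GSK101 against 26.6 ± 1.23 RPKM in the controls (SD, n = 3; log2 fold change -0.17, limma adjusted p = 0.0303). It lost its call in 7 of 18 alternatives, 5 of them leaving out 1 library (without GSK101 replicate 1, 2 or 3 or Ctrl replicate 1 or 3), with adjusted p from 0.00924 to 0.0895 over all. The list had 1 higher and none lower after rescaling to TPM, and 3 lower with quantile normalization. Transcripts of this list were at 1 RPKM or more in the controls for 7 of 8 genes, while Hox genes were near 0.

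Of 18 tested jaw patterning genes 4 rose, 6 fell and 8 did not pass, with a median log2 fold change of 0.02. The counts were 2 higher and 7 lower with quantile normalization, and 4 and 4 after rescaling to TPM. Osr1, a zinc finger factor of jaw and limb mesenchyme, fell to 40.3 ± 2.24 RPKM with GSK101, against 80.2 ± 2.73 RPKM in the controls (SD, n = 3; log2 fold change -0.98, limma adjusted p = 9.76e-05). Its relative Osr2 fell to 1.07 ± 0.08, against 2.10 ± 0.25 RPKM (log2 fold change -0.73, limma adjusted p = 0.00177). Edn1, the endothelin signal that switches on Dlx5 and Dlx6 in the lower arch of the mouse, fell to 3.47 ± 0.05, against 6.29 ± 0.71 RPKM (log2 fold change -0.77, limma adjusted p = 0.000679). Ednra, an endothelin receptor gene, rose to 1.25 ± 0.07, against 0.851 ± 0.014 RPKM (log2 fold change 0.38, limma adjusted p = 0.0178). A link of either gene to the Dlx changes was not tested. Irx3, an iroquois homeobox gene, rose to 15.5 ± 1.01, against 9.68 ± 1.03 RPKM (log2 fold change 0.65, limma adjusted p = 0.0013).

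Of 6 tested neural crest and mesenchyme factors 1 rose and none fell, with a median of 0.05, while 1 was higher and 1 lower with the length trend removed. The gene that rose was Snai1, at 9.12 ± 0.45 RPKM with GSK101 against 6.36 ± 0.96 RPKM in the controls (SD, n = 3; log2 fold change 0.50, limma adjusted p = 0.00921), while Snai2 and Twist1 had log2 fold changes of 0.07 and 0.11 and did not pass. Of 13 genes that mark positions in limb, trunk or brain 4 were tested and 1 fell, with a median of -0.15. This was Tbx15, at 11.4 ± 0.59 against 13.1 ± 0.34 RPKM (log2 fold change -0.19, limma adjusted p = 0.0304); the call was lost after rescaling to TPM and without GSK101 replicate 1 or 3 or Ctrl replicate 1 or 2, with adjusted p up to 0.105. Emx2 had 16.9 ± 0.48 against 16.2 ± 0.47 RPKM and did not pass. Tbx5 and Tbx4, the genes of forelimb and hindlimb, were chosen here after their values were seen and averaged 0.0129 and 0.00928 RPKM with GSK101, against 0.00849 and 0.00224 RPKM in the controls.

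The labelled cell type was checked against marker genes. Of 9 fibroblast and disc markers in the table each was above 10 RPKM in both groups on average, with 5 higher and 1 lower with GSK101 and sums of 6843 to 8088 RPKM against 7538 to 8524 RPKM. Removing the length trend gave 4 higher and 4 lower, quantile normalization 4 and 0, and median-ratio scaling 3 and 2. Pdgfra, Lum and Prg4 rose by 0.43, 0.54 and 1.43 on the log2 scale and Thy1 fell by 0.23, and Lum lost its call without GSK101 replicate 2 (adjusted p = 0.0517) and Thy1 with quantile normalization (adjusted p = 0.0831). Of 8 chondrocyte markers 2 were tested, Acan and Sox9. Acan averaged 31.9 RPKM with GSK101 against 33.6 RPKM in the controls, and Sox9 averaged 2.46 against 2.80 RPKM. Neither passed, although both were called lower once the trend of gene length had been taken out. Col2a1, in contrast to Acan, was at 0.0164 RPKM in both groups. Of 3 tendon markers 1 fell, Scx, by 0.82 on the log2 scale, and of 2 tested osteoblast markers 1 fell, Alpl, by 0.71.

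Markers of other cell types were summed in the same way. Of 6 tested pericyte and smooth muscle markers 4 fell (Acta2, Myh11, Mcam and Notch3), with sums of 2904 to 3170 RPKM with GSK101 against 5305 to 5509 RPKM in the controls. Endothelial markers summed to 1.16 to 1.38 against 0.699 to 0.977 RPKM, where Kdr rose and Cdh5 was at 0.00769 and 0.0332 RPKM on average. Macrophage and leukocyte markers summed to 8.07 to 11.4 against 7.35 to 10.6 RPKM, with Cd14 higher. Cd68, which did not pass, and Ptprc, Adgre1 and Csf1r, which were not tested, averaged lower with GSK101. Skeletal muscle markers summed to 8.21 to 9.11 against 12.7 to 13.9 RPKM, with Acta1 lower. Most of each muscle sum was Acta1, at 7.69 against 12.4 RPKM on average. Des, which did not pass, and Myod1 and Myog, which were not tested, averaged higher with GSK101, and Ckm, not tested, lower. Schwann and neural markers summed to 29.3 to 34.4 against 29.0 to 30.1 RPKM (S100b higher and Tubb3 lower, which lost the call in 9 and 3 of 18 alternatives), adipocyte markers to 28.3 to 36.1 against 34.0 to 38.5 RPKM (Lpl lower), and epithelial markers to 1.76 to 2.03 against 2.04 to 2.36 RPKM with none called, or 1 lower with quantile normalization. No marker in the table had 0 reads in all 6 libraries. All 11 cell cycle genes rose, with a median log2 fold change of 0.80, and Mki67 was at 35.4 ± 0.26 against 16.1 ± 0.84 RPKM (SD, n = 3). The part of these shifts in the changes of the homeobox genes was not tested.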

How the data were processed

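Polyadenylated RNA was sequenced from 6 libraries of TMJ disc cells, per the labels' protocols with a stranded kit that adds molecular identifiers. The authors deposited RPKM values for 20675 genes with exon positions, strand and length. Tools listed without roles in the submitters' processing notes are edgeR 3.12.1, STAR 2.5.3a, Subread 1.5.1, Trimmomatic 0.36 and featureCounts, with the build Rnor_6.0. Collapse of identifiers, use of strand and treatment of reads with several matches are not given in the sources used here.

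RPKM times length was a whole multiple of 1 step per library for 100% of values, to within 0.01 of a read; taken as 1 read, this gave 43061102 to 45705238 counted reads. Even numbers made up 71.3% to 74.7% of values from 1 to 10 reads, and a pair of mates may thus count as 2 reads. Such counts cover counting error only.

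GSK101 was compared with Ctrl by limma 3.58.1 (R 4.3.3), applied to log2(RPKM + 0.5) without further terms, with a variance trend and Benjamini-Hochberg adjustment over the 12801 genes with at least 0.5 RPKM in at least 3 libraries. It was tested on simulated data first. Such fold changes understate the change of low genes, and fold values are ratios of mean RPKM. Members and lists were chosen with earlier results of these data known. All members are counted, and single values of some genes are not reported here; from each list of other genes up to 4 called members with the smallest adjusted p are named, or the 2 most abundant where fewer than 2 were called. Chi-square per gene was 2.36 to 7.84 between replicates and 30.1 to 38.1 across groups, so no libraries were merged. No exon of the 50 genes overlaps another gene's exon in the table.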

Additional observations from a re-analysis of the deposited data

How the results depend on the processing

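With 18 alternatives the counts of the 50 genes past the threshold, 4 higher and 3 lower, ranged from 3 to 4 and from 2 to 3. Of 306 single values 284 kept direction and side of the threshold and 9 lost the call, all of Dlx1 or Meis3. The trend of gene length, removed after the data had been seen, was among them for Dlx1 (adjusted p = 0.0557). The remaining 13 changed sign, all for genes that did not pass. Meis1 was at -0.026 with median-ratio scaling, -0.070 with quantile normalization and -0.088 with the length trend removed. Pitx1 was at -0.015 with quantile normalization. After rescaling to TPM Msx2 was at 0.0035 and Dlx2 at 0.011. Leaving out 1 library in turn gave ranges of -0.037 to 0.039 for Meis1, -0.102 to 0.064 for Dlx2 and -0.174 to 0.062 for Hoxd8. The causes were not tested.

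Over all tested genes 2570 were higher and 1518 lower. The counts were 2936 and 1117 after rescaling to TPM, 2165 and 1947 with median-ratio scaling, 1983 and 2141 with quantile normalization and 1885 and 2101 with the length trend removed; no scaling moved the median of all genes by more than 0.06. Deviations from the group mean had correlations of 0.05, -0.06 and 0.05 between same-numbered libraries. Between libraries of different number they ran from -0.15 to 0.11. With 3 libraries per group these values cannot tell whether same-numbered libraries shared an animal, a culture or a day. With the number as a replicate block 2508 genes were higher and 1437 lower, and 4 and 3 of the 50. Depth limits the Hox genes, most of which had a few reads per library.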
